A study of Mus musculus with 2 samples.

Results

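The Mir30 family comprises 6 mouse microRNA genes, Mir30a, Mir30b, Mir30c-1, Mir30c-2, Mir30d and Mir30e. They were taken by symbol from the 1973 miRNA genes listed in the deposited count files, and all 6 were present. The data are small RNA sequencing libraries of limb from embryos of strain B6NCrl at embryonic day 11.5, with both sexes pooled and a healthy state given in the labels. Replicate 1 was made from 109 embryos and replicate 2 from 88. These 2 libraries form the only group, with no other genotype, age, tissue or treatment. The labels call them biological replicates but give both the same donor identifier, so the spread reported here is that of these 2 pools and may be technical.

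MicroRNAs are short RNAs cut from the arms of a hairpin precursor, and the strand loaded into an Argonaute protein pairs with messenger RNAs mainly through its seed, bases 2 to 8 from the 5′ end. The Mir30 family is conserved across vertebrates and is abundant in kidney, heart and other differentiated tissues. Its targets reported elsewhere include Runx2 and Smad1, regulators of bone formation, and Snai1, a regulator of mesenchymal transition. Paralogous hairpins of the family lie in pairs along the genome, and some of them encode an identical mature strand.

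The sequences are shown because they set which reads can be assigned to which hairpin. RefSeq entries (GRCm38.p6) matched 4 of the 6 genes, namely Mir30a, Mir30c-1, Mir30c-2 and Mir30e; Mir30b and Mir30d are named only. The 5′ strands are given 5′ to 3′ with the seed in capitals:
miR-30e-5p: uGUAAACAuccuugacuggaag
miR-30a-5p: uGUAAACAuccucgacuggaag
miR-30c-5p: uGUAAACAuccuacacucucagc

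All 3 strands carried the seed GUAAACA, whose matching site in a target reads UGUUUAC. The miR-30c-5p strand was the same in Mir30c-1 and Mir30c-2, with 0 differences over its 23 bases. miR-30a-5p differed from miR-30e-5p by the single substitution C13U, counted from 1 at the 5′ end of miR-30a-5p, which lies outside the seed. The 3′ strands, again with the seed in capitals, fell into a pair of seed groups that followed the same division:
miR-30e-3p: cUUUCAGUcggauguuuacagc
miR-30a-3p: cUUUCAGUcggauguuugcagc
miR-30c-1-3p: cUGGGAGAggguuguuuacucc
miR-30c-2-3p: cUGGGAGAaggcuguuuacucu

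On the 3′ side Mir30a and Mir30e shared the seed UUUCAGU, and the strands differed only by G18A. The Mir30c-1 and Mir30c-2 strands shared the seed UGGGAGA and differed by G9A, U12C and C22U. In the whole hairpins, printed with both mature strands in capitals, the longest stretch shared by the 2 Mir30c genes was 28 bases, reaching 5 bases past the 5′ strand into the loop:
Mir30c-1 hairpin: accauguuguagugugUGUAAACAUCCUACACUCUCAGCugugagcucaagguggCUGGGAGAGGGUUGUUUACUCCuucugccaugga
Mir30c-2 hairpin: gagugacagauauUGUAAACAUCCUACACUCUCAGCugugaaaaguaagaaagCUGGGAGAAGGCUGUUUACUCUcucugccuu

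A read of miR-30c-5p therefore matches both hairpins exactly, whereas a read of either full 3′ strand matches no other hairpin of the RefSeq table used here exactly. The longest stretch shared by Mir30a and Mir30e was 18 bases, shorter than any of the 4 mature strands of these genes, each of 22 bases. Neither Mir30c hairpin shared more than 12 bases with Mir30a or Mir30e. No stretch of any of the 4 hairpins longer than 11 bases occurred in a hairpin of the same RefSeq table outside the family. That statement does not cover Mir30f, a relative on the strand opposite Mir30e that is described below.

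The hairpins lie in 3 pairs on the mm10 assembly (GENCODE M21 positions), and in each pair both genes are on the same strand. Mir30e (ENSMUSG00000065409.1) lies on chromosome 4 from 120772606 to 120772697 and Mir30c-1 (ENSMUSG00000065490.1) on the same chromosome from 120769534 to 120769622, with 2983 bases between them. Both sit in introns of Nfyc, which encodes a subunit of the CCAAT-binding factor NF-Y and is transcribed in the same direction. In all 6 annotated Nfyc transcripts that span them, both hairpins were in 1 intron with 0 exons between. Counted from the annotated start of Nfyc, a gene 74.1 kb long, Mir30e begins at 58.9 kb and Mir30c-1 at 61.95 kb.

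Mir30d (ENSMUSG00000065437.1) lies on chromosome 15 from 68341208 to 68341289, inside an exon of the long noncoding RNA Gm20732, and 9 of its bases also overlap the unclassified transcript Gm37296. Mir30b (ENSMUSG00000065476.2) follows from 68337415 to 68337510, 3697 bases away, and only 16 of its bases overlap an annotated exon, that of the noncoding transcript Gm26621. Mir30a (ENSMUSG00000065405) lies on chromosome 1 from 23272269 to 23272339 and overlaps no other annotated gene. Its partner Mir30c-2 (ENSMUSG00000065567.1), from 23291701 to 23291784, lies inside an exon of the long noncoding RNA Gm27028, 19361 bases away. The identifier version of Mir30a differs between the files and GENCODE M21, so the span that was counted may differ from the one given; the other 5 versions are identical. Only 1 other listed miRNA gene, Gm23936, lies within 100 kb of any family member, and it had 0 counts in both libraries.

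The sense counts of all miRNA genes came to 2953085 in replicate 1 and 3459176 in replicate 2, and levels are given as CPM, counts scaled to a library total of 1000000, so 1 count is worth 0.339 and 0.289 CPM. Each read stems from 1 short RNA, and the mature strands are 22 or 23 bases long, so levels of different hairpins were compared without a length correction. How evenly different strands are captured in a library was not measured, and any unevenness could be shared by both libraries. Ratios between hairpins are therefore ratios of counts and need not equal those of the RNAs in the tissue. A gene's count pools the 2 arms of its hairpin. Multimapping reads, 24.7% and 23.4% of all reads in the files, are in no gene's count. The labelled tissue was checked on marker miRNAs. Limb mesenchyme and Hox-cluster miRNAs held 17.7% of the counts with 6 of 6 detected, the endothelial Mir126a held 2.42% and 7 epithelial miRNAs 1.42%. Blood, muscle, neural and liver markers held between 0.00182% and 0.0703%, with Mir124a-1, Mir124a-2, Mir124a-3, Mir9-2 and Mir1a-1 at 0. The genes at 0 are numbered copies, and reads that fit several copies are in no gene's count. Their 0 counts therefore do not show absence. Mir137 held 99.0% of the neural marker counts. The family's counts come from the whole tissue, in which fewer cells of a type and less RNA per cell cannot be told apart.

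Mir30e made up most of the family's counts. It had 60764 counts, or 20576 CPM, in replicate 1 and 69809 counts, or 20181 CPM, in replicate 2. Its mean was 20379 ± 279.8 CPM (SD, n = 2, as throughout), which placed it at rank 13 of the 1973 listed genes in both libraries. Of the family's counts it held 73.3% in replicate 1 and 72.7% in replicate 2.

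Mir30a, from the pair on chromosome 1, came next. It had 13458 counts (4557 CPM) in replicate 1 and 15665 counts (4529 CPM) in replicate 2, with a mean of 4543 ± 20.3 CPM and rank 45 in each library. Mir30d, from the pair on chromosome 15, followed with 7934 counts (2687 CPM) and 9790 counts (2830 CPM), a mean of 2758 ± 101.5 CPM. Mir30a held 16.3% ± 0.05 and Mir30d 9.88% ± 0.44 of the family. The 2 libraries thus gave each of these 3 leading genes nearly the same level.

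The other 3 genes stood far lower. Mir30b had 327 counts (110.7 CPM) in replicate 1 and 390 counts (112.7 CPM) in replicate 2. Mir30c-1 had 343 counts (116 CPM) and 361 counts (104 CPM). Mir30c-2, the other gene for miR-30c-5p, had 111 counts (37.6 CPM) in replicate 1 and 71 counts (20.5 CPM) in replicate 2. Mir30b and Mir30c-1 held 0.400% and 0.395% of the family's counts and Mir30c-2 held 0.104%. All 6 genes reached 10 CPM in both libraries, the level used here to call a gene detected, as did 295 of all listed genes.

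**Figure D1:**
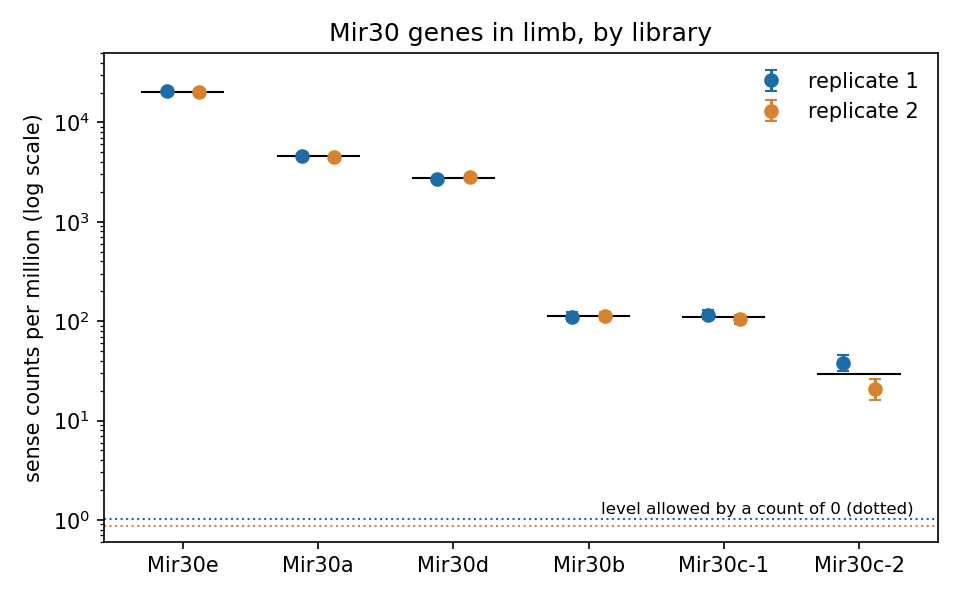
Sense CPM (log axis) of each Mir30 gene in replicate 1 (blue) and replicate 2 (orange), with Wilson 95% intervals that cover counting error only; black lines are means of the 2 libraries and dotted lines the level that a count of 0 allows (1.02 and 0.867 CPM). Mir30e, Mir30a and Mir30d lie between 2687 and 20576 CPM and the other genes between 20.5 and 116 CPM, and only for Mir30c-2 are the 2 points visibly apart.

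**Figure D2:**
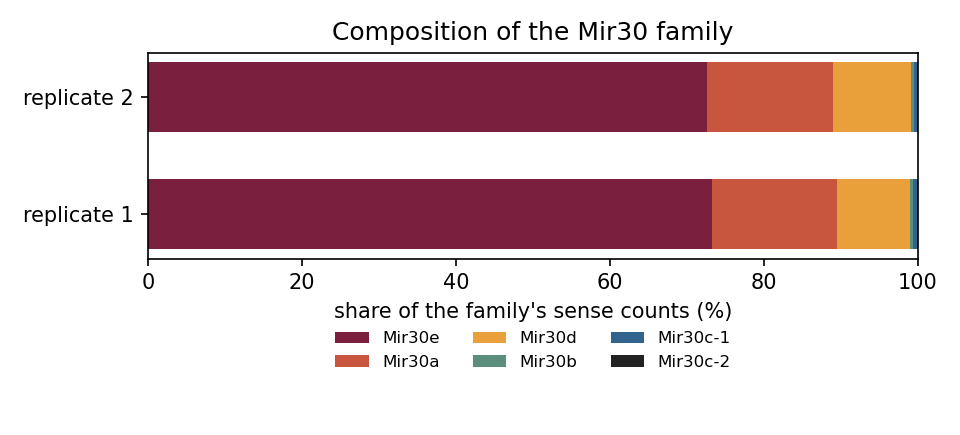
Share of the family's sense counts (percent) held by each Mir30 gene in each library, as stacked bars that add to 100%. Mir30e takes 73.3% and 72.7%, and Mir30b, Mir30c-1 and Mir30c-2 appear as thin bands at the right.

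The family as a whole held 2.81% of the sense counts in replicate 1 and 2.78% in replicate 2, and without Mir30e it held 0.751% and 0.760%. Neighbours in the order of levels were called apart where the log2 ratio had the same sign in both libraries and exceeded 2 times the larger of its SD and its counting error. Mir30e exceeded Mir30a by 2.17 ± 0.01 log2 units, or 4.49-fold. Mir30a exceeded Mir30d by 0.72 ± 0.06 log2 units, or 1.65-fold. Both steps passed that criterion, as did the drop of 4.63 ± 0.03 log2 units from Mir30d to Mir30b. The criterion covers spread between the libraries and counting error only, not uneven capture of different strands.

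Mir30b and Mir30c-1 did not differ beyond their spread. Their log2 ratio was -0.07 in replicate 1 and 0.11 in replicate 2, so the order reversed between the libraries, and the counting errors of 0.11 in each were as large as the values. Mir30c-1 lay above Mir30c-2 by 1.63 log2 units in replicate 1 and 2.35 in replicate 2, a mean of 1.99 ± 0.51 that passed the criterion. From Mir30e to Mir30c-2 the family spanned 9.52 ± 0.60 log2 units. An exact test on 2 libraries cannot go below p = 0.5 for a ratio, and none was run.

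In each pair of neighbouring hairpins the upstream gene, in the direction of transcription, had nearly all the counts. Mir30e had 177 times the count of Mir30c-1 in replicate 1 and 193 times in replicate 2 (7.53 ± 0.09 log2 units), and both lie in the same Nfyc intron. Mir30d had 24.3 and 25.1 times the count of Mir30b (4.63 ± 0.03 log2 units, below the counting errors of 0.08 and 0.07). Mir30a had 121 times the count of Mir30c-2 in replicate 1 and 221 times in replicate 2 (7.35 ± 0.61 log2 units). The ratios to Mir30c-1 and Mir30c-2 are those of uniquely placed reads. Reads of miR-30c-5p fit both of these hairpins and can be missing from their counts, so the ratios may be too large. No RefSeq sequence was matched to Mir30b or Mir30d, so whether these genes lost shared reads could not be checked. The ratio of Mir30d to Mir30b is likewise that of uniquely placed reads.

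The leading gene accounted for 99.5% of the Nfyc pair, 99.4% of the chromosome 1 pair and 96.1% of the chromosome 15 pair. The shares in the Nfyc and chromosome 1 pairs carry the same limit from miR-30c-5p. For the chromosome 15 pair the loss of shared reads could not be checked. The Nfyc pair as a whole held 2.05% ± 0.03 of all sense counts, the chromosome 1 pair 0.457% ± 0.003 and the chromosome 15 pair 0.287% ± 0.010. The order of the pairs was therefore that of their leading genes.

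**Figure D3:**
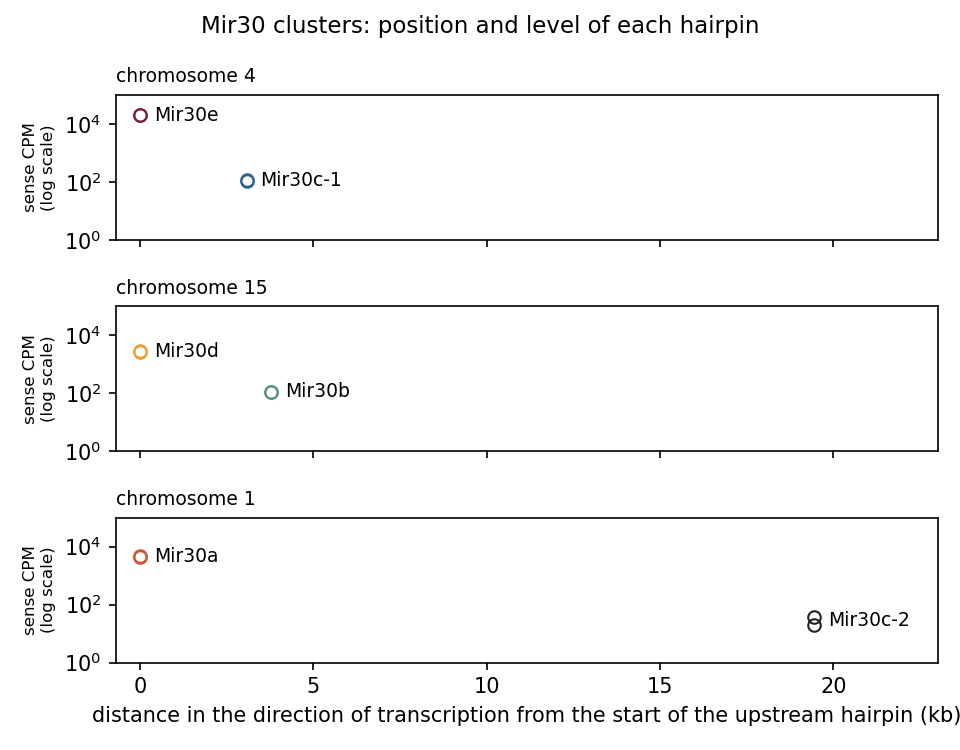
Position of each hairpin in its pair, as distance in kb along the direction of transcription from the start of the upstream hairpin, against sense CPM (log axis); the 2 open circles of a gene are the libraries. In each of the 3 pairs the upstream hairpin (Mir30e, Mir30d or Mir30a) lies above its partner, by 24.3 times to 221 times. Reads of miR-30c-5p, which fit both Mir30c-1 and Mir30c-2, can be missing from the levels of these 2 partners. For Mir30b and Mir30d, without a matched sequence, this could not be checked.

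Both genes for miR-30c-5p were among the 3 lowest of the family, and their mature 5′ strand is the only one of those printed that another hairpin also holds. Among 858 listed genes with RefSeq hairpin and mature sequences, 49 had some but not all mature strands in another hairpin. Of these, 30 (61.2%) were detected, with a median of 68.1 CPM. Of 775 genes with no such strand 222 (28.6%) were detected, with a median of 372 CPM. The remaining 34 genes had every mature strand in another hairpin, and 6 of them (17.6%) were detected, with a median of 64.2 CPM. Over all 858 genes 258 (30.1%) were detected, with a median of 283 CPM. Each median is that of the detected genes only, and the detected share differs between the classes. Whether a shared strand lowers a count was not tested. The means of Mir30c-1 and Mir30c-2, 110.3 and 29.1 CPM, lie on either side of the first of these medians. Multimapping reads numbered 1644176 in replicate 1 and 1738400 in replicate 2, which is 19.8 and 18.1 times all counts of the family. Which genes they stem from is not recorded in the files, so the part of miR-30c-5p in them was not tested, and the Mir30c levels are those of uniquely placed reads.

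Families of similar build gave mixed pictures. In the Mir26 family Mir26b, with no shared mature strand, had 16742 CPM, whereas Mir26a-2 and Mir26a-1, each with 1 strand found in another hairpin, had 38.7 and 13.4 CPM. In the Mir29 family, whose members repress collagen genes, Mir29c led with 68.5 CPM. Mir29b-1 and Mir29b-2, each with a strand found in another hairpin, stood under 1 CPM. The Mir181 family differed from both. There Mir181d led with 7226 CPM, but Mir181b-2 and Mir181a-1 reached 3250 and 1874 CPM although each has a strand found in another hairpin.

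Mir30e took 73.0% ± 0.4 of its family, against 99.7% for Mir26b, 71.4% for Mir29c and 37.8% for Mir181d. Mir30e and Mir26b were close in level, with a log2 ratio of 0.28 ± 0.02. As families, Mir30 at 2.79% ± 0.02 lay above Mir181 at 1.91% ± 0.07, Mir26 at 1.68% ± 0.04 and Mir29 at 0.00959%. These are descriptions of levels, and no test between families was made. All of these shares cover uniquely placed reads only. Each family has hairpins with a strand found in another hairpin, among them Mir30c, Mir26a, Mir181a, Mir181b and Mir29b. The reads lost there are unknown, so neither the order of the families nor the shares of their leaders need hold for all reads.

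**Figure D4:**
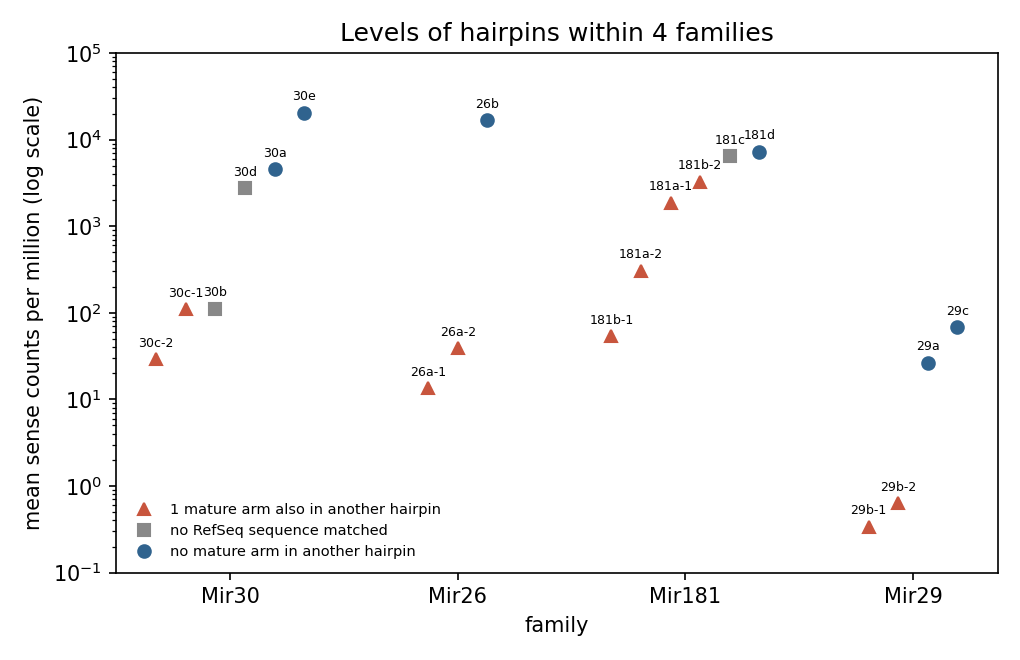
Mean sense CPM of the 2 libraries (log axis) for each hairpin of the Mir30, Mir26, Mir181 and Mir29 families; triangles mark hairpins with 1 mature strand also found in another RefSeq hairpin, circles those with none, and squares those without a matched sequence. Mir30c-1 and Mir30c-2 lie with Mir26a-1 and Mir26a-2 at 13.4 to 110.3 CPM, while triangles of the Mir181 family reach 3250 CPM.

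Outside the family the seed GUAAACA occurred in 1 further gene, Mir384, among the 1738 mature entries of the RefSeq table, where 5 entries (0.288%) carried it. The count holds only within that table, which has sequences for 4 of the 6 Mir30 genes. Its 5′ strand diverges after the seed:
miR-384-5p: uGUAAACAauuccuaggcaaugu

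Mir384, on chromosome X, had 148 counts (50.1 CPM) in replicate 1 and 144 counts (41.6 CPM) in replicate 2, above Mir30c-2 and below Mir30c-1 in both. Another relative, Mir30f, is annotated on the strand opposite Mir30e over the same span. Its mature strand (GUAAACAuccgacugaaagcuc) holds the same 7 bases, in capitals, at positions 1 to 7 rather than 2 to 8. Mir30f is not listed in the files, but reads on its strand would fall in the opposite-strand column of Mir30e. That column held 0 counts in both libraries, which allows up to 1.02 CPM in replicate 1 and 0.867 CPM in replicate 2. The opposite-strand column was 0 at the other 5 genes too.

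The libraries were then compared gene by gene, to see whether the members repeated within counting error. An exact two-sided binomial test against TMM-scaled library sizes, with Benjamini-Hochberg adjustment over all 422 genes with 10 or more summed counts, called 3 of the 6 Mir30 genes, 1 higher and 2 lower in replicate 2. Over all tested genes it called 90, or 21.3%, with 9.48% higher and 11.8% lower. The test compares these 2 libraries, not conditions.

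Mir30c-2 had the widest difference of the family. With 111 counts against 71 its log2 ratio of replicate 2 over replicate 1 was -0.88 (95% interval -1.34 to -0.44; adjusted p = 0.000387 in the exact binomial test), a 1.84-fold fall. The Wilson intervals of its level, 31.2 to 45.3 CPM in replicate 1 and 16.3 to 25.9 CPM in replicate 2, did not overlap. Of 58 tested genes with summed counts within 2-fold of its own, 1 had a log2 ratio as large. Mir30c-1, which shares the 5′ strand, had a log2 ratio of -0.17 (-0.38 to 0.05; adjusted p = 0.344 in the exact binomial test) and was not called.

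The calls for Mir30e and Mir30d rested on many counts and small differences. Mir30e was lower in replicate 2 by a log2 ratio of -0.04, or 1.03-fold (adjusted p = 3.55e-06 in the exact binomial test), and 10 of 16 genes of like count differed as much. Mir30d was higher in replicate 2 by 0.06, or 1.04-fold (adjusted p = 0.0232 in the exact binomial test), and 28 of 45 genes of like count differed as much. Mir30a, at -0.02 (-0.06 to 0.01), and Mir30b, at 0.01 (-0.20 to 0.23), were not called. The family's median log2 ratio was -0.03, beside -7.65e-06 over all tested genes.

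With a test widened by the mean squared deviation of all genes, 0 of the 6 Mir30 genes and 12 of all 422 (2.84%) were called, against 3 and 90. That factor was 18.95. A version that took the median, chosen after seeing the data, called 48 genes (11.4%), among them Mir30e (adjusted p = 0.0173) but neither Mir30c-2 (adjusted p = 0.0883) nor Mir30d (adjusted p = 0.42).

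**Figure D5:**
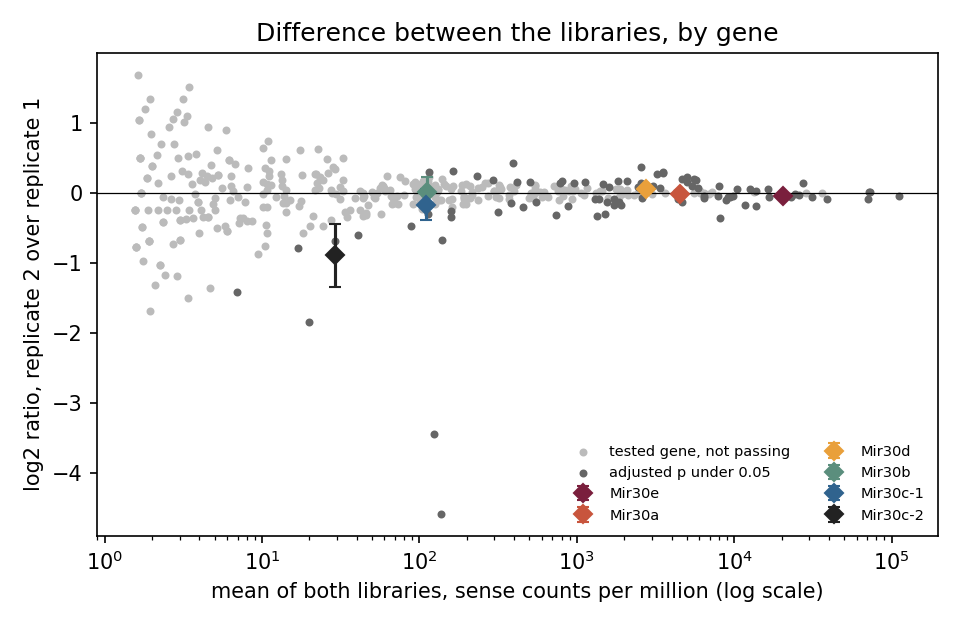
Log2 ratio of replicate 2 over replicate 1 against the mean level (sense CPM, log axis) for the 422 tested genes, with those passing the exact binomial test in dark grey; diamonds are the Mir30 genes with exact 95% intervals of counting error. Mir30c-2 lies at -0.88 and the other Mir30 genes between -0.17 and 0.06.

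Because the series holds 1 group, likeness to other genes could be judged by level alone. The listed gene nearest to each member in mean log2(CPM + 1) over the 2 libraries was Mir23b for Mir30e (a difference of 0.17 log2 units), Mir324 for Mir30a (0.01), and Mir101b for Mir30d (0.08). For the lower genes it was Mir496a for Mir30b, Mir190a for Mir30c-1 and Mir294 for Mir30c-2, all within 0.012 log2 units. Mir23b had 22861 ± 552 CPM and Mir101b 2600.4 ± 10.6 CPM.

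Runx2 directs the formation of bone, which the limb has yet to form at this stage, and the Mir30c genes belong to a set of 15 listed miRNA genes known to target it. In that set 9 genes were detected, and Mir30c-1 and Mir30c-2 took places 5 and 9. Mir23a led with 9083 ± 171.6 CPM, then Mir205, an epithelial miRNA, with 5522 ± 566 CPM, Mir34c with 1446 ± 29.2 CPM and Mir137 with 210.5 ± 11.3 CPM. Below Mir30c-1 stood Mir218-2 at 70.3 CPM, Mir204 at 66.7 CPM and Mir338 at 52.3 CPM. Mir218-1, Mir135a-1, Mir217 and Mir135a-2 lay between 2.75 and 8.67 CPM, and Mir133a-1 and Mir133a-2 had 0 counts.

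The set held 1.66% ± 0.04 of the counts, of which the Mir30c genes supplied little: without them it held 1.65% ± 0.04. Of its 13 tested genes the exact binomial test called Mir205 higher and Mir23a and Mir30c-2 lower in replicate 2, beside 21.3% of all tested genes. The median log2 ratio of the set was -0.08. As for the Mir30c genes, reads that fit several copies can be missing from the counts of Mir135a and Mir218 hairpins, each of which has 1 strand found in another hairpin. Mir133a-1 and Mir133a-2 are also numbered copies, but no RefSeq sequence was matched to them. Whether they lost shared reads could not be checked, so their 0 counts do not show absence.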

How the data were processed

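Small RNA of 2 limb libraries, the only group, was analysed from the authors' deposited raw counts of reads per miRNA gene, 1 file per library and not normalized. Per the notes deposited with the samples, the assembly was mm10 and the annotation GENCODE M4; for the aligner and counter, names and settings were not given in the sources used here. The sense column was used, and lines of reads in no gene (unmapped, multimapping, without a feature) stayed out of library sizes. Of 1973 genes, 1894 matched GENCODE M21 by identifier without version. Sequences came from RefSeq.

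CPM used the total of sense counts. A count of 0 allows 3 counts; such limits and the 95% intervals (Wilson for shares, exact for ratios between libraries) cover counting error only, since PCR copies are not independent. Log2 ratios between libraries used a prior count of 0.5. TMM factors came from edgeR 4.0.16 and, as an alternative, size factors from DESeq2 1.42.0, in R 4.3.3; no quasi-likelihood test was run because there is 1 group. The binomial test was tested on simulated data. These were drawn with counting error only, so they do not show how the test behaves under the wider spread between the real libraries. Python 3.11.15, scipy 1.17.1, numpy 2.4.6 and pandas 2.3.3 did the rest.

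The members, gene lists and tests were chosen with earlier results of these data known. Named genes were the members, genes sharing the 5′ seed, listed genes within 100 kb, the gene nearest in level to each member, leaders of the Mir26, Mir181 and Mir29 families and the Runx2 set; other members of those families and Mir30f were named after their values were seen. Alternatives covered the column, denominator, pseudocount, scaling, filter, detection level, an overdispersed test and each library alone.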

Additional observations from a re-analysis of the deposited data

How the results depend on the processing

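With 2 libraries, a value from either one alone lies within 1 SD of the mean by construction, and the opposite-strand column is 0 at all 6 members, so neither setting checks the ratios between members. With both strand columns summed, the family share was 2.73%, that of Mir30e with Mir30c-1 2.00% and that of Mir30a with Mir30c-2 0.447%. With all reads as the denominator these shares were 1.27%, 0.931% and 0.208%, and that of Mir30d with Mir30b 0.131%, since the denominator then includes unmapped and multimapping reads. The overdispersed test called 5 genes higher and 7 lower in replicate 2, and with the median 21 and 27, against 40 and 50; Mir30c-2, Mir30d and, with the mean, Mir30e lost their calls. Total counts as the scaling changed no call among the Mir30 genes and gave 45 higher and 42 lower. At 1 or more summed counts 39 and 44 of 706 genes were called, and at 100 or more 44 and 50 of 279. All 6 Mir30 genes passed 1 CPM in both libraries. At 100 CPM 5 passed, all but Mir30c-2. The order of Mir30b and Mir30c-1 changed between the libraries. No paired analysis was possible because the series holds a single group. With 2 libraries the SD is itself imprecise, and low counts limit Mir30c-2.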
